A study of Mus musculus with 32 samples.

Results

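The genes described here are the 106 protein-coding genes of the mitochondrial respiratory chain and ATP synthase that the count table holds among its 47643 gene IDs. They were chosen by symbol: Ndufa, Ndufb, Ndufc, Ndufs and Ndufv genes, Uqcr genes, Sdha to Sdhd, Cox4 to Cox8 genes and Atp5 genes encoded in the nucleus, and the mt-Nd, mt-Co, mt-Cyt and mt-Atp genes of mitochondrial DNA. Of them, 93 were nuclear and 13 were mitochondrially encoded. The nuclear members comprised 36 genes of complex I, 8 complex I assembly factors that share its Ndufa prefix, 4 of complex II, 8 of complex III, 20 of complex IV (with Ndufa4 and Ndufa4l2 counted there) and 17 of complex V. The mitochondrial members comprised 7 of complex I, 1 of complex III, 3 of complex IV and 2 of complex V.

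RNA of epididymal white adipose tissue (eWAT) and liver came from male C57BL/6 mice aged 10 weeks, which shared sex, strain and a fast before collection. The mice had drunk corticosterone (cort), the main glucocorticoid of rodents, or its ethanol vehicle (veh) in their water for 7 days while eating a normal-protein diet (NPD, 20% of energy as protein) or a high-protein diet (HPD, 60% of energy as protein, with correspondingly less carbohydrate). The groups are called by treatment and diet (Veh NPD and Cort NPD, Veh HPD and Cort HPD), each with 4 libraries per tissue, and liver Veh HPD was used with 3. Cort in the drinking water reaches every tissue, so a change in eWAT or liver is one of that tissue within a systemically treated mouse.

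The respiratory chain moves electrons from NADH (complex I) and succinate (complex II) through ubiquinone, complex III and cytochrome c to oxygen at complex IV, and the proton gradient made along the way drives ATP synthase, complex V. Complexes I, III, IV and V are assembled from products of both genomes, whereas complex II is wholly nuclear. In liver the chain feeds gluconeogenesis and urea synthesis, and in white fat, which holds fewer mitochondria, it supplies the ATP for lipid storage and turnover.

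The promoters of 3 members on which the results turn are shown first. Ndufaf4, a complex I assembly factor, was higher with cort in eWAT on both diets, Cox8b, the muscle and brown fat isoform of complex IV subunit 8, was lower with cort in eWAT, and Uqcr11, a small subunit of complex III, was lower with cort in NPD liver. Each window runs from 250 bases before to 50 bases after the RefSeq start site, 5′ to 3′ on the gene's strand (build GRCm38.p6), at chr4:24897833-24898132 on the plus strand, chr7:140900397-140900696 on the minus strand and chr10:80406772-80407071 on the minus strand. Capitals mark matches to the motif letters given in the following paragraph.
Ndufaf4: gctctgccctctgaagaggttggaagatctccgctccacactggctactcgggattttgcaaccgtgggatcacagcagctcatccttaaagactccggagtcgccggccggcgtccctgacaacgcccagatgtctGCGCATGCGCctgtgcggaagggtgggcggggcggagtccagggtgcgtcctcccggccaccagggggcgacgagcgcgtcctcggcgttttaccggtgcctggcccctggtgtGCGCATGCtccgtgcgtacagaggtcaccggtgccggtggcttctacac
Cox8b: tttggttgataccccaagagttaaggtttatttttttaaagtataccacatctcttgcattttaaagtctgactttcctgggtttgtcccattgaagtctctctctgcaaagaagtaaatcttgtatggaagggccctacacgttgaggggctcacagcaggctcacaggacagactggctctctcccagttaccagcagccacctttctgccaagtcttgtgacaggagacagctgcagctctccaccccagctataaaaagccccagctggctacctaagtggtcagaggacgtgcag
Uqcr11: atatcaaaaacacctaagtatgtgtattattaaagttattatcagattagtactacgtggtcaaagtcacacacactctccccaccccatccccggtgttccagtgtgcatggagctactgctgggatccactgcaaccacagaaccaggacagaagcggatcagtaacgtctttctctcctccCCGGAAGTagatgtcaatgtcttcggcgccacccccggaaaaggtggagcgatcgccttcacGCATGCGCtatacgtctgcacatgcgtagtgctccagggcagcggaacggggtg

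Motifs of 4 factors known for nuclear mitochondrial genes were sought on both strands: NRF1 (GCGCANGC), an ETS site of the NRF2 kind (CCGGAAGT), YY1 (AAGATGGCG) and ERR (TCAAGGTCA). RefSeq promoters were matched for 74 of the 93 nuclear members. A gene was counted once if any of its promoters held the letters. The NRF1 letters occurred in 25 of the matched members, 33.8%, and in 11.2% of 27025 genes with promoters of the same length. Those 27025 genes were not limited to the genes tested here. The YY1 letters occurred in 10.8% of the members and 1.64% of all genes, the ETS letters in 6.76% and 4.31%, and the ERR letters in 2.7% and 0.466%. The Ndufaf4 window held 3 NRF1 matches, starting 113 and 111 bases before the start site, where they overlap, and at base 2 after it. The Uqcr11 window held 1 NRF1 and 1 ETS match, and none of the 4 motifs was in the Cox8b window. A match is a description of letters, and occupancy was not measured.

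Libraries were made from the 3′ ends of polyadenylated RNA, so a count is a tag near the end of a transcript, levels are given as CPM (a gene's share of the library's counts times 1e+06, the library size scaled with TMM factors within a tissue), and levels are compared between samples but not between genes. Totals ran from 9794683 to 18057936 counts in eWAT and from 8933307 to 17447524 in liver. The tissue labels held against markers, since summed adipocyte markers ran from 30019 to 54526 CPM in eWAT and from 22.6 to 84.7 CPM in liver, and summed hepatocyte markers from 74355 to 247740 CPM in liver and from 34.2 to 89.8 CPM in eWAT. Liver Veh HPD replicate 4 was left out of all values below unless stated, by a choice made before these fits. Measured afterwards, the root mean square log2 distance of that library from its own group's other libraries was 0.86 over 6098 genes. This distance was 0.618 for liver Cort HPD replicate 1 and 0.289 to 0.386 for the other liver libraries. In bulk tissue, fewer cells of a type and less RNA per cell cannot be told apart. Summed red blood cell markers ran from 12684 to 25856 CPM in eWAT Cort HPD and from 3619 to 9273 CPM in the other eWAT groups, and from 5271 to 7622 CPM in liver Cort HPD against 1358 to 3544 CPM in the other liver groups. Their part in the differences below was not tested.

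Nuclear and mitochondrially encoded members were first summed per library, as a description without a test. In eWAT the 13 mitochondrial genes summed to 64600 ± 6542 CPM in Veh NPD (mean ± SD, n = 4), 57911 ± 14070 in Veh HPD, 78396 ± 8376 in Cort NPD and 65526 ± 5483 in Cort HPD. The 93 nuclear genes summed to 20074 ± 2372, 18739 ± 4467, 21149 ± 1287 and 19070 ± 649 CPM in that order of groups. The nuclear means of the eWAT groups differed by less than the SD of Veh HPD, and the mitochondrial mean was highest in Cort NPD. That SD came mainly from Veh HPD replicate 4, with a nuclear sum of 25416 CPM. The other Veh HPD libraries ran from 16077 to 17001 CPM. The lowest libraries of Veh NPD, Cort NPD and Cort HPD were at 17496, 19378 and 18138 CPM.

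In liver the mitochondrial genes summed to 153048 ± 41415 CPM in Veh NPD, 163772 ± 46881 in Veh HPD (n = 3), 128411 ± 3187 in Cort NPD and 176500 ± 60884 in Cort HPD. The nuclear genes summed to 25475 ± 1841, 25680 ± 1673, 23784 ± 2089 and 28412 ± 4903 CPM. The spread of the liver mitochondrial sums came mainly from single libraries, with 213958 CPM in Veh NPD replicate 4, 216875 in Veh HPD replicate 2 and 266896 in Cort HPD replicate 1. The last of these also had the highest nuclear sum, 35744 CPM, the highest hepatocyte sum, 247740 CPM, and the lowest TMM factor, 0.754.

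**Figure D1:**
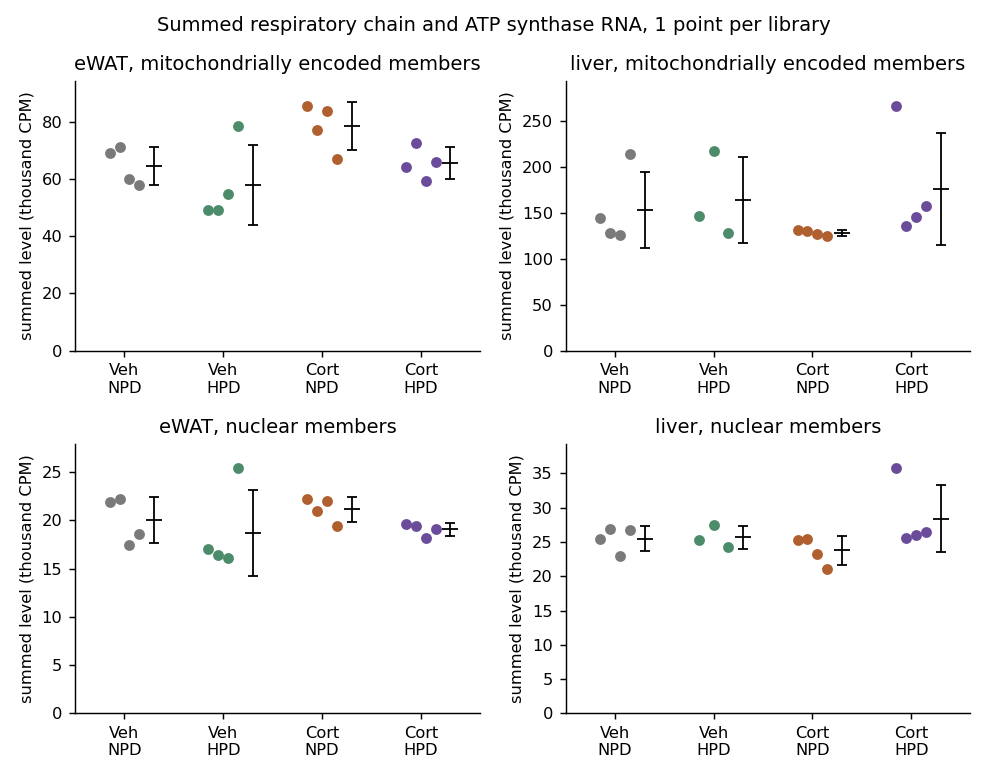
Summed CPM (divided by 1000, linear axis) of the 93 nuclear and the 13 mitochondrially encoded members in each library of eWAT and liver, by group. Points are libraries and bars are the mean ± SD; 1 library stands above its group in eWAT Veh HPD (nuclear sum 25416 CPM) and 1 in liver Cort HPD (nuclear sum 35744 CPM, mitochondrial sum 266896 CPM).

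The ratio of mitochondrial to nuclear tags within a library does not depend on the scaling. In eWAT it was 3.23 ± 0.144 in Veh NPD, 3.09 ± 0.226 in Veh HPD, 3.70 ± 0.177 in Cort NPD and 3.43 ± 0.217 in Cort HPD (SD, n = 4 each). The Cort NPD libraries, from 3.46 to 3.86, lay just above the Veh NPD libraries, from 3.11 to 3.43, while the Veh HPD and Cort HPD libraries overlapped. In liver the ratio was 5.99 ± 1.39, 6.32 ± 1.38 (n = 3), 5.42 ± 0.367 and 6.09 ± 0.950, and the ranges of the 4 groups overlapped.

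The comparison of cort with veh on the NPD asked how cort changed these genes in eWAT. Few members changed: 5 of the 98 tested were called with edgeR's quasi-likelihood test at an adjusted p under 0.05, which is 5.1%, against 7.98% of all 15187 genes tested. Ndufaf4, Cox5a and mt-Nd2 rose, and Cox8b and Ndufb3 fell. In complex I, 1 of 36 genes was called and 22 of the 36 fold changes were positive, in complex III none of 8 was called and all 8 were positive, in complex IV 2 of 17 were called and 5 of 17 were positive, and in complex V none of 17 was called and 11 were positive. The median log2 fold change was 0.05 over the 90 nuclear members tested (55 positive) and 0.21 over the 8 mitochondrial members tested (7 positive), and -0.02 over all genes. With library totals in place of TMM factors the split was 1 higher and 2 lower, and the medians were -0.04 for nuclear members, 0.12 for mitochondrial members and -0.11 for all genes.

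Ndufaf4 stood at 28.5, 31.3, 32.3 and 34.2 CPM in eWAT Veh NPD and at 50.6, 43.1, 57.6 and 48.5 CPM in Cort NPD. Every cort library was above every veh library, with a log2 fold change of 0.66 ± 0.13 (SE) and an adjusted p of 0.00148 by edgeR. Cox5a, a nuclear subunit of complex IV, stood at 259, 273, 196 and 229 CPM in Veh NPD and at 342, 303, 348 and 331 CPM in Cort NPD. These groups did not overlap either (0.47 ± 0.15, adjusted p = 0.044 by edgeR), but the call was kept in only 5 of 16 fits with 1 library left out, with an adjusted p of up to 0.172. mt-Nd2, a core subunit of the membrane arm of complex I encoded at chrM:3914-4951, stood at 11180.0, 9738, 10611 and 10089.8 CPM in Veh NPD and at 15083, 12947, 16054 and 11702 CPM in Cort NPD. All 4 cort libraries were higher, by 0.42 ± 0.12 on the log2 scale (adjusted p = 0.0304 by edgeR), and 10 of 16 fits with 1 library left out kept the call. mt-Nd1, another core subunit of complex I, had a similar log2 fold change of 0.44 ± 0.15 that missed the threshold (adjusted p = 0.0637 by edgeR).

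Cox8b stood at 24.5, 28.0, 20.0 and 18.3 CPM in eWAT Veh NPD and at 10.4, 5.82, 10.3 and 9.71 CPM in Cort NPD. The cort libraries were all lower, with a log2 fold change of -1.33 ± 0.34 (adjusted p = 0.0178 by edgeR). Without Veh NPD replicate 2 or without Cort NPD replicate 2 the call was lost, with an adjusted p of up to 0.0645. Ndufb3, an accessory subunit of the complex I membrane arm, was lower by a log2 fold change of -0.43 ± 0.13 (adjusted p = 0.0444 by edgeR), with 208 to 274 CPM in Veh NPD and 160 to 237 CPM in Cort NPD. Those ranges overlapped, and 7 of 16 fits with 1 library left out kept the call. Of the windows near its 3′ end, 10.2% were shared with another annotated gene, so part of its tags may be counted elsewhere.

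Cox8b belongs to the brown fat marker list and makes up a large part of its sum. Summed brown fat markers ran from 34.8 to 43.4 CPM in eWAT Veh NPD, 19.9 to 52.5 in Veh HPD, 18.3 to 24.2 in Cort NPD and 8.79 to 11.1 in Cort HPD. With Cox8b left out the sums ran from 14.3 to 20.5, 8.11 to 11.8, 12.5 to 13.9 and 4.52 to 6.71 CPM, so that most of the difference on the NPD was Cox8b itself. Skeletal muscle markers ran from 63.7 to 199 CPM, 19.8 to 90.3, 11.2 to 24.9 and 12.6 to 21.5 in that order of groups. Ucp1, the uncoupling protein that defines brown and beige fat, was between 0 and 2.04 CPM in eWAT and at 0 in all 8 cort-treated libraries. The part of these cell types in the difference of Cox8b was not tested.

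On the HPD, the same comparison in eWAT called 3 of 98 members, 3.06%, against 6.09% of all genes tested. Cox8b stood at 16.9, 11.3, 11.3 and 44.4 CPM in Veh HPD and at 4.28, 4.74, 3.26 and 3.54 CPM in Cort HPD. All cort libraries were below all veh libraries (log2 fold change -2.41 ± 0.37, adjusted p = 0.000224 by edgeR), and Veh HPD replicate 4 was far above its group. Without that replicate the log2 fold change was -1.74 with an adjusted p of 5.53e-05. Ndufaf4 stood at 33.4, 32.2, 28.3 and 34.1 CPM in Veh HPD and at 46.6, 53.7, 48.5 and 44.9 CPM in Cort HPD, again without overlap (0.60 ± 0.13, adjusted p = 0.00481 by edgeR). Ndufb3 fell from 185 to 259 CPM in Veh HPD to 149 to 169 CPM in Cort HPD, without overlap (-0.53 ± 0.13, adjusted p = 0.0164 by edgeR). The calls of all 3 genes on the HPD held in every alternative run and with each library left out.

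The nuclear median on the HPD was 0.03 with 51 of 90 fold changes positive, but without eWAT Veh HPD replicate 4 it was 0.20 and 17 members were called, 15 of them higher, against 8.06% of all genes in that fit. With TMM factors replaced by library totals the same median was -0.01. Replicate 4 had a nuclear sum of 25416 CPM, against 16077 to 17001 CPM in the other Veh HPD libraries, a mitochondrial sum of 78628 CPM, against 49020 to 54799 CPM, and 54526 CPM of adipocyte markers, above the group's median of 40453 CPM. Their part was not tested. Among the genes called without it but not with it, chosen after their values were seen, were Uqcrq of complex III (log2 fold change 0.51, adjusted p = 0.00304 by edgeR), Ndufab1, the mitochondrial acyl carrier protein (0.53, 0.00654), mt-Nd1 (0.47, 0.00337) and mt-Cytb, the cytochrome b of complex III (0.40, 0.0215). In the same fit 9 members were called on the NPD, against 9.24% of all genes.

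**Figure D2:**
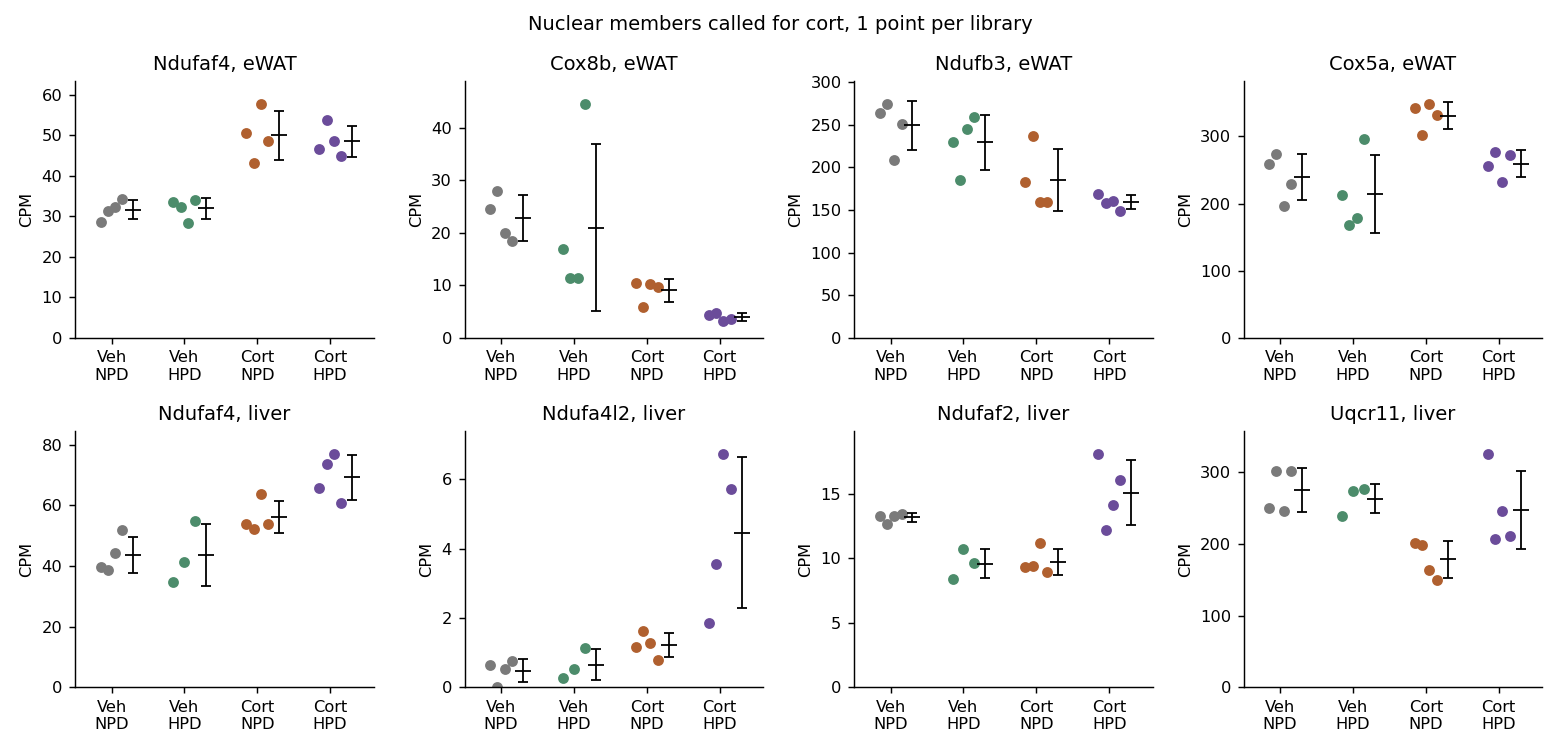
CPM of 8 members in each library by group (linear axes; points are libraries and bars the mean ± SD): Ndufaf4, Cox8b, Ndufb3 and Cox5a in eWAT, and Ndufaf4, Ndufa4l2, Ndufaf2 and Uqcr11 in liver. The cort-treated eWAT libraries sit at 43.1 CPM or more for Ndufaf4 and at 10.4 CPM or less for Cox8b, apart from the veh libraries on either diet.

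Diet moved no member past the threshold in eWAT. HPD against NPD in veh-treated mice called 0 of 98 members with edgeR's quasi-likelihood test, 0 with DESeq2 and 0 with limma voom, 9 had an unadjusted p under 0.05, and 0.0593% of all genes were called. The nuclear median was -0.09 (24 of 90 positive), and without Veh HPD replicate 4 it was -0.26. In cort-treated mice 0 of 98 members were called with edgeR (11 with an unadjusted p under 0.05, 1 with DESeq2, 0 with limma voom), against 0.487% of all genes. Here 10 of 90 nuclear and none of 8 mitochondrial fold changes were positive, with medians of -0.14 and -0.29 against 0.02 over all genes, and all 8 genes of complex III and all 17 of complex V were negative. The gene that DESeq2 called was mt-Nd2, at -0.48 on the log2 scale (adjusted p = 0.00478 by DESeq2, 0.09 by edgeR). Its Cort HPD libraries stood at 9680, 11064, 9684 and 9631 CPM, all below the Cort NPD libraries given earlier.

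Whether cort acted differently on the diets in eWAT was tested as an interaction. It called 0 of 98 members with edgeR, 0 with DESeq2 and 0 with limma voom, 1 had an unadjusted p under 0.05, and 0.0132% of all genes were called. For Cox8b the interaction was -1.08 ± 0.49 on the log2 scale (adjusted p = 0.942 by edgeR), for Ndufaf4 -0.06 ± 0.18 (0.993), for mt-Nd2 -0.25 ± 0.17 (0.988) and for Cox5a -0.19 ± 0.20 (0.988). A p that misses the threshold does not show that the effects on the diets were alike.

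In liver on the NPD the members that changed with cort all fell. Of 96 members tested, 4 were called, 4.17%, against 12.6% of all 12391 genes tested. They were mt-Nd3 and mt-Cytb of the mitochondrial genome, the complex I assembly factor Ndufaf6 and Uqcr11. The 8 genes of complex III were all negative, with a median of -0.20, and the median over 88 nuclear members was -0.09 (29 positive) against -0.01 over all genes. Of the 8 mitochondrial members tested 4 were positive.

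Ndufaf6 stood at 21.10, 20.92, 18.01 and 25.36 CPM in liver Veh NPD and at 15.3, 12.1, 11.7 and 10.8 CPM in Cort NPD. All cort libraries were lower (log2 fold change -0.77 ± 0.18, adjusted p = 0.00486 by edgeR). Uqcr11 stood at 249.6, 302, 246 and 301 CPM in Veh NPD and at 201, 198, 164 and 149.8 CPM in Cort NPD, again without overlap (-0.62 ± 0.16, adjusted p = 0.0117 by edgeR). Both calls held in every alternative and with each library left out.

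mt-Nd3, a core subunit of complex I encoded at chrM:9459-9806, stood at 140.4, 152, 64.9 and 128 CPM in liver Veh NPD and at 41.0, 33.4, 25.7 and 38.8 CPM in Cort NPD. All cort libraries were lower (log2 fold change -1.80 ± 0.36, adjusted p = 0.0046 by edgeR), but 97.8% of the gene's 75-base windows also occur in the annotated copy Gm28438, so its count is uncertain. mt-Cytb, encoded at chrM:14145-15288 and with no shared window, stood at 40593, 37491, 34427 and 61674 CPM in Veh NPD and at 26681, 28158, 23991 and 26643 CPM in Cort NPD. The groups did not overlap (-0.72 ± 0.23, adjusted p = 0.0427 by edgeR), and 7 of 15 fits with 1 library left out kept the call.

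On the HPD the called liver members mostly rose with cort. Of 96 members 5 were called, 5.21%, against 9.89% of all genes, 4 higher and 1 lower. The higher genes were Ndufa4l2, a hypoxia-inducible paralog of Ndufa4, the complex I assembly factors Ndufaf4 and Ndufaf2, and Ndufb4, an accessory subunit of complex I, and the lower gene was mt-Nd6. The nuclear median was 0.19 with 71 of 88 positive, and in complex I 31 of 36 were positive. With library totals in place of TMM factors the nuclear median was -0.06 with 31 of 88 positive, 1 member was called higher and 1 lower, and the median over all genes was -0.24 where it had been -0.00. A change of scaling shifts all genes about alike. Without Cort HPD replicate 1 the nuclear median was 0.05, against -0.01 over all genes. The mitochondrial median was -0.17, and 0.41 without Veh HPD replicate 2.

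Ndufa4l2 was near the counting floor in veh-treated liver. It stood at 0.632, 0, 0.519 and 0.761 CPM in Veh NPD (0 to 9 counts), at 0.279, 0.519 and 1.15 CPM in Veh HPD (5 to 17 counts), at 1.15, 1.64, 1.29 and 0.790 CPM in Cort NPD and at 1.87, 3.55, 6.73 and 5.72 CPM in Cort HPD (22 to 88 counts). Cort HPD was above every other library, and the log2 fold change against Veh HPD was 2.78 ± 0.56 (adjusted p = 0.00289 by edgeR), which held in every alternative and with each library left out. On the NPD the log2 fold change was 1.26 ± 0.57 (adjusted p = 0.156 by edgeR).

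Ndufaf4 in liver stood at 39.8, 38.5, 44.4 and 51.8 CPM in Veh NPD, at 34.8, 41.4 and 54.9 CPM in Veh HPD, at 54.0, 52.3, 63.8 and 53.9 CPM in Cort NPD and at 65.6, 73.6, 76.9 and 60.8 CPM in Cort HPD. The cort libraries lay above the veh libraries on each diet, with a log2 fold change of 0.66 ± 0.17 on the HPD (adjusted p = 0.013 by edgeR) and of 0.36 ± 0.15 on the NPD (adjusted p = 0.131). The HPD call was lost with library totals, in a fit of only the groups compared, and without Veh HPD replicate 1 or 2. Ndufaf2, a chaperone of late complex I assembly, stood at 8.43, 10.7 and 9.59 CPM in Veh HPD and at 18.1, 12.2, 14.1 and 16.04 CPM in Cort HPD. All Cort HPD libraries were higher (0.66 ± 0.17, adjusted p = 0.0187 by edgeR), and this call was lost under the same 2 settings and without Veh HPD replicate 1 or 3. On the NPD its values were 13.3, 12.6, 13.2 and 13.4 CPM in Veh NPD and 9.31, 9.40, 11.2 and 8.94 CPM in Cort NPD, which is -0.44 ± 0.16 on the log2 scale (adjusted p = 0.0777 by edgeR).

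Ndufb4 ran from 90.7 to 101.5 CPM in liver Veh HPD and from 113 to 163 CPM in Cort HPD without overlap (0.51 ± 0.16, adjusted p = 0.0417 by edgeR), and 9 of 15 fits with 1 library left out kept the call. mt-Nd6, the only protein gene on the light strand of mitochondrial DNA, stood at 25.1, 55.1 and 14.7 CPM in Veh HPD and at 6.70, 20.4, 10.7 and 14.4 CPM in Cort HPD. These ranges overlapped (-1.26 ± 0.37, adjusted p = 0.0463 by edgeR), and only 2 of 15 fits with 1 library left out kept the call. The highest value came from Veh HPD replicate 2, which also had 9028 CPM of mt-Co1, 10018 CPM of mt-Nd5 and 4.59% of its counts in mitochondrial ribosomal RNA.

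Diet alone left the liver members without a call in veh-treated mice. HPD against NPD called 0 of 96 members with edgeR's quasi-likelihood test (5 with an unadjusted p under 0.05, 1 with DESeq2, 0 with limma voom), against 0.169% of all genes. The nuclear median was 0.01 and the mitochondrial median 0.30, with mt-Co1 at 1.03 ± 0.25 (adjusted p = 0.114 by edgeR), mt-Nd5 at 1.07 ± 0.36 (0.328) and mt-Nd6 at 1.18 ± 0.38 (0.295). For each of these 3 genes the highest Veh HPD value was that of replicate 2.

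In cort-treated mice, HPD against NPD called 5 of 96 liver members, 5.21%, all higher, against 5.88% of all genes in either direction. The called genes were mt-Nd3, Ndufaf2, Ndufa4l2, Cox6b1 and Atp5f1, and 31 members had an unadjusted p under 0.05. Fold changes were positive for 81 of 88 nuclear and 8 of 8 mitochondrial members, with medians of 0.23 and 0.54 against -0.01 over all genes. By role, the positive genes were 32 of 36 in complex I, 8 of 8 among assembly factors, 4 of 4 in complex II, 8 of 8 in complex III, 14 of 15 in complex IV and 15 of 17 in complex V. With library totals in place of TMM factors, 57 of 88 nuclear fold changes were positive, the medians were 0.06 and 0.35 where that of all genes was -0.18, and 3 members were called. Without Cort HPD replicate 1 the nuclear median was 0.14 and 3 members were called, against 5.04% of all genes. Summed hepatocyte markers ran from 142613 to 247740 CPM in liver Cort HPD and from 98723 to 122721 CPM in Cort NPD without overlap, against 83305 to 116909 CPM in Veh NPD and 74355 to 85368 CPM in Veh HPD, and their part in the differences was not tested.

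mt-Nd3 stood at 195, 60.6, 92.2 and 76.0 CPM in liver Cort HPD, above the Cort NPD values given earlier (25.7 to 41.0 CPM). The log2 fold change was 1.61 ± 0.36 with an adjusted p of 0.0186 by edgeR, or 1.13 and 0.0211 without Cort HPD replicate 1. It missed the threshold only without Cort NPD replicate 3 (adjusted p = 0.0568). Ndufaf2 was higher by 0.63 ± 0.16 (adjusted p = 0.0217 by edgeR) and Ndufa4l2 by 1.88 ± 0.48 (0.0221), neither with overlap. Ndufaf2 lost this call with library totals and without Cort NPD replicate 1 or 4 or Cort HPD replicate 1 or 4 (adjusted p up to 0.0948), and Ndufa4l2 without Cort NPD replicate 1, 3 or 4 or Cort HPD replicate 3 or 4 (up to 0.0781). Both rest on the Cort HPD and Cort NPD values already given, which also enter the comparisons with veh.

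Cox6b1, a complex IV subunit facing the intermembrane space, stood at 427, 477, 403 and 369 CPM in liver Cort NPD and at 684, 544, 554 and 577 CPM in Cort HPD. Atp5f1, a subunit of the peripheral stalk of ATP synthase, stood at 362, 343, 344 and 340.4 CPM in Cort NPD and at 762, 439, 479 and 401 CPM in Cort HPD. Neither gene overlapped between diets (0.49 ± 0.14, adjusted p = 0.043, and 0.58 ± 0.17, adjusted p = 0.0438, both by edgeR), and in both Cort HPD replicate 1 was the highest. Without that replicate the log2 fold changes were 0.41 (adjusted p = 0.0773) and 0.34 (adjusted p = 0.127). Each call was kept in only 4 of 9 alternative settings and in 8 of 15 fits with 1 library left out. Cox6b1 lost its call without any 1 of the Cort HPD libraries, and Atp5f1 without any 1 of the Cort NPD libraries.

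In liver the test of diet by cort called 0 of 96 members with edgeR (9 with an unadjusted p under 0.05, 1 with DESeq2, 0 with limma voom), against 0.113% of all genes. DESeq2 called Ndufaf2, whose log2 interaction was 1.11 there (adjusted p = 0.00649 by DESeq2) and 1.09 ± 0.24 by edgeR (adjusted p = 0.0641). The interaction was positive for 74 of 88 nuclear members with a median of 0.25, and for 49 of 88 with a median of 0.03 under library totals, where the median of all genes was -0.22. The cort effects on Uqcr11 (interaction 0.54 ± 0.23, adjusted p = 0.355), Ndufaf6 (0.54 ± 0.26, 0.403), mt-Nd3 (1.29 ± 0.51, 0.338) and Ndufa4l2 (1.52 ± 0.81, 0.469) were not shown to differ between diets by edgeR.

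**Figure D3:**
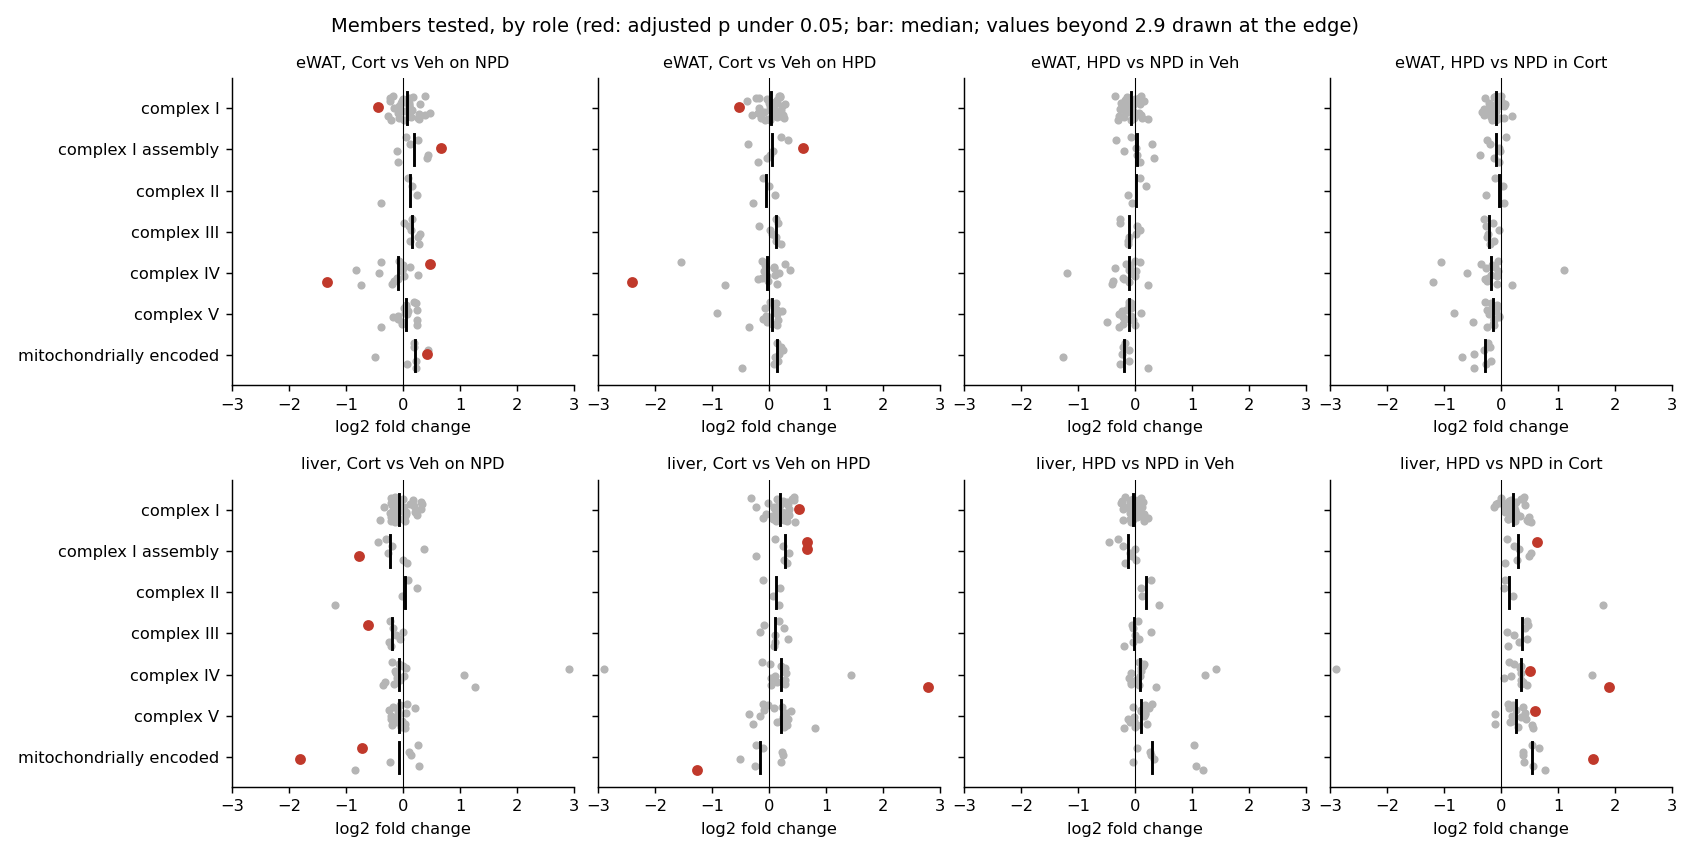
Log2 fold change of each tested member in the 8 comparisons of cort with veh and of HPD with NPD in eWAT and liver, grouped by role (complexes I to V, assembly factors and mitochondrial genes). Points are genes, red points passed an adjusted p of 0.05, bars are medians and values are clipped at the axis limits; in liver of cort-treated mice 81 of 88 nuclear points lie above 0, and in eWAT of cort-treated mice 10 of 90 do.

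The difference between tissues was far larger than that between treatments. In Veh NPD mice 93 of 100 members tested in a joint fit were called, 93%, against 62.7% of all 16482 genes, with 89 higher in liver and 4 lower. The nuclear median was 1.16 and the mitochondrial median 1.87 on the log2 scale, against -0.26 over all genes, but with library totals in place of TMM factors 42 were higher and 20 lower, with medians of 0.13, 0.84 and -1.28. The TMM factors of the joint fit were 1.40 to 1.48 in eWAT and 0.635 to 0.743 in liver. Higher in liver under TMM were 35 of 36 genes of complex I, 6 of 8 assembly factors, 4 of 4 of complex II, 8 of 8 of complex III, 12 of 18 of complex IV and 16 of 17 of complex V.

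Levels given as mean ± SD for this tissue comparison are CPM scaled with the TMM factors of the joint fit. They therefore differ from the levels of the same libraries given within a tissue. Atp5g1, which encodes the c subunit of the ATP synthase rotor, was at 19.5 ± 3.88 CPM in eWAT and 149 ± 19.7 CPM in liver (SD, n = 4), with a log2 fold change of 2.93 ± 0.19 and an adjusted p of 2.41e-15 by edgeR. Other annotated genes share 20.6% of the windows near its 3′ end, so its count is uncertain. Ndufs6, an accessory subunit of complex I, was at 108 ± 13.1 and 390 ± 28.4 CPM (1.86 ± 0.13, adjusted p = 7.4e-15 by edgeR), and Uqcrq of complex III at 360 ± 21.9 and 1717 ± 121 CPM (2.25 ± 0.18, adjusted p = 3.58e-13). Among mitochondrial genes, mt-Nd4 was at 17545 ± 2095 and 108997 ± 33971 CPM (2.64, adjusted p = 1.02e-10 by edgeR).

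All 4 members lower in liver belonged to the complex IV group and are isoforms with a restricted distribution. Their levels here are on the same joint scale. Cox8b was at 16.001 ± 3.15 CPM in eWAT and 0.542 ± 0.640 in liver (-4.81 ± 1.08, adjusted p = 0.000437 by edgeR), Cox4i2, the isoform known for hypoxic tissue and lung, at 1.501 ± 0.766 and 0.156 ± 0.313 (-3.18 ± 1.08, 0.0106), Cox6b2, the testis isoform, at 2.83 ± 1.68 and 0.312 ± 0.415 (-3.13 ± 0.73, 0.000332) and Ndufa4l2 at 3.34 ± 2.20 and 0.696 ± 0.487 (-2.21 ± 0.62, 0.00224). All 4 had few counts in liver Veh NPD, with Cox8b at 13, 2, 1 and 2 counts and Ndufa4l2 at the counts given earlier. The log2 values of these genes therefore depend on the prior count of the fit, most of all those of Cox4i2 and Cox6b2, whose liver counts were near 0.

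The cort effect itself was compared between tissues as a difference of differences. On the NPD it called 0 of 100 members with edgeR (14 with an unadjusted p under 0.05, 2 with DESeq2, 0 with limma voom), against 3.85% of all genes, with a nuclear median of -0.10 and a mitochondrial median of -0.41. On the HPD it called 1 of 100, against 3.12% of all genes. That gene was Ndufa4l2, whose cort effect was higher in liver by 3.52 ± 0.85 on the log2 scale (adjusted p = 0.0135 by edgeR). In eWAT it stood at 5.27, 7.83, 4.77 and 4.22 CPM in Veh HPD and at 2.02, 4.42, 4.12 and 2.32 CPM in Cort HPD, overlapping and on the low side with cort, while the liver groups given earlier did not overlap. Without liver Veh HPD replicate 1 the adjusted p was 0.0606.

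Complex IV has widely expressed and restricted forms of several subunits. Cox4i1, Cox6a1, Cox7a2, Cox8a and Ndufa4, all widely expressed, were called in no comparison within a tissue by edgeR, and Cox6b1 only in the diet comparison of cort-treated liver. On the separate scale of each tissue, Cox4i2 ran from 0.242 to 3.72 CPM in eWAT and from 0 to 0.433 CPM in liver, and Cox6b2 from 1.67 to 6.86 CPM and from 0 to 0.606 CPM. Cox7a1, the muscle isoform of subunit 7a, was at 1.34 to 3.89 CPM in liver Veh NPD, 2.03 to 8.87 in Veh HPD, 2.54 to 11.7 in Cort NPD and 14.7 to 20.6 in Cort HPD. Cort HPD lay above the other groups, though the diet effect under cort was not called (log2 fold change 1.59 ± 0.49, adjusted p = 0.074 by edgeR). DESeq2 (adjusted p = 0.0365) and limma voom (0.00901) did call it. For cort on the HPD in liver, limma voom (adjusted p = 0.0141) and an edgeR fit of only the groups compared (0.0444) called Cox7a1 higher. In eWAT its diet effect in veh-treated mice was -1.20 ± 0.36 (adjusted p = 0.25 by edgeR). Cox6a2, the muscle isoform of subunit 6a, reached 45.0 CPM in liver Cort NPD replicate 3 and at most 1.82 CPM in the other liver libraries. The same library held 11.3 CPM of Cox8b and 617 CPM of summed skeletal muscle markers. It was also the Cort NPD library with 11.7 CPM of Cox7a1, from 154 counts against 33, 49 and 56 in the rest of its group. The part of muscle RNA was not tested.

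Complex II, which also serves the citric acid cycle, showed no call within either tissue by edgeR. Sdha, its flavoprotein, ran from 316 to 476 CPM in eWAT and from 187 to 276 CPM in liver, Sdhb, its iron-sulfur protein, from 242 to 494 and from 422 to 601 CPM, and Sdhc, a membrane anchor, from 145 to 237 and from 158 to 246 CPM. The other anchor, Sdhd, varied most. It stood at 138, 146, 117 and 245 CPM in liver Veh NPD, at 212, 239 and 195 in Veh HPD, at 83.0, 72.7, 51.9 and 73.8 in Cort NPD and at 579, 117, 140 and 129 in Cort HPD. Cort NPD was the lowest group without overlap, at -1.20 ± 0.48 against Veh NPD (adjusted p = 0.131 by edgeR) and 1.78 ± 0.49 for Cort HPD over Cort NPD (adjusted p = 0.0537). Other settings called Sdhd: limma voom (adjusted p = 0.0385) and a fit restricted to the groups compared (0.00232) for cort on the NPD, and DESeq2 (0.00509), limma voom (0.0231) and library totals (0.0301) for diet under cort.

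Not all mitochondrial transcripts were measured alike. mt-Nd4 had 270803 to 497207 counts per eWAT library and 574879 to 1659329 per liver library, and mt-Cytb 173229 to 302096 and 316902 to 768730. By contrast, mt-Co2 had 0 to 4 counts in either tissue, mt-Co3 0 in every eWAT library and 0 to 4 in liver, mt-Atp6 0 to 15 and 0 to 11, mt-Nd4l at most 1, and mt-Atp8 none in any library. These 5 genes did not pass the filter in either tissue, so the mitochondrial medians above cover the other 8. Of the 75-base windows of mt-Co2, mt-Co3, mt-Atp6 and mt-Nd4l, between 98.7% and 99.9% also occur in other annotated genes (copies such as Gm28661, Gm28437, Gm10925 and Gm10222), while mt-Atp8 shares none but overlaps mt-Atp6 on chromosome M (7766 to 7969 and 7927 to 8607). mt-Nd3, with 97.8% of windows shared, had 61 to 1238 counts in eWAT and 339 to 2528 in liver, and mt-Nd4, with 61.5% shared, was among the most counted. The part of shared sequence in these low counts was not tested, and a count near 0 is not given here as a level of the transcript.

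**Figure D4:**
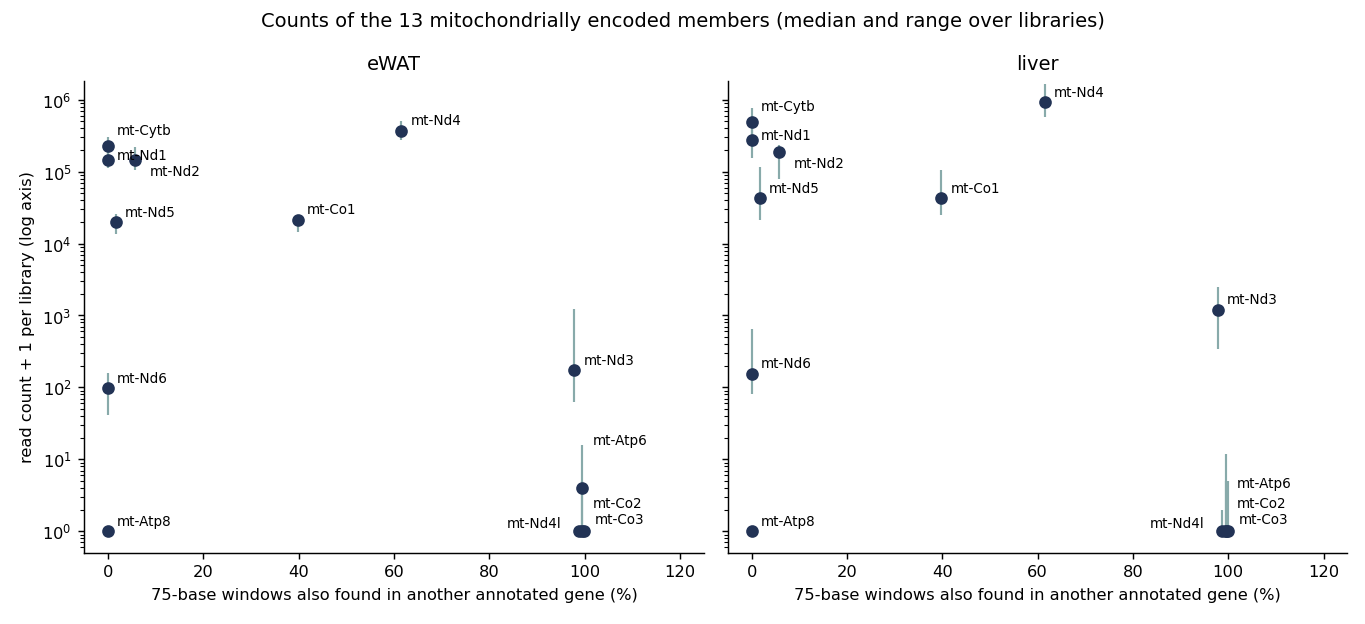
Counts per library of the 13 mitochondrially encoded members (count + 1 on a log axis; point = median, bar = range over libraries) against the percentage of each gene's 75-base windows that also occur in another annotated gene, for eWAT and liver. Genes with 0 to 5.71% of windows shared lie in the upper range except mt-Nd6 and mt-Atp8, and mt-Co2, mt-Co3, mt-Atp6 and mt-Nd4l lie near 0 at 98.7% or more.

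Other genes of the pathway were examined from lists of regulators and partners. In eWAT on the NPD, 2 of 23 genes of mitochondrial DNA expression and biogenesis rose, the mitochondrial poly(A) polymerase Mtpap (log2 fold change 0.90 ± 0.18, adjusted p = 0.0013 by edgeR) and the coactivator Ppargc1b (1.25 ± 0.37, 0.0458), where 4.05% of all genes rose. Of 35 other assembly factors 1 rose, Uqcc1 of complex III (0.69, adjusted p = 0.00197), of 12 citric acid cycle genes 1 rose, Idh3a (0.58, 0.0121), of 77 mitochondrial ribosomal protein genes 1 rose, Mrpl12 (0.80, 0.0445), and of 16 electron carrier genes none was called. Among 5 uncoupling and carrier genes, the phosphate carrier Slc25a3 rose (0.37, 0.0365) and Ucp2 fell (-1.003, 0.000264). On the HPD, Esrra, an orphan nuclear receptor of mitochondrial genes, rose (0.79, 0.0204), as did Mrpl50 (0.47, 0.049), and Ucp2 fell (-0.70, 0.0105), each 1 gene of its list where 3.46% of all genes rose and 2.63% fell. With 1 library left out, the NPD calls of Mrpl12 and Slc25a3 were kept in 3 and 7 of 16 fits, and that of Mrpl50 on the HPD in 2 of 16, while those of Mtpap, Uqcc1 and Ucp2 on the NPD were kept in all 16.

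In liver on the NPD, cort lowered 8 of 76 mitochondrial ribosomal protein genes, with Mrpl14 at -0.57 (adjusted p = 0.00783 by edgeR) and Mrps31 at -0.68 (0.0115), and 62 of the 76 fold changes were negative, where 5.79% of all genes were called lower. Mdh2 of the citric acid cycle rose (0.57, adjusted p = 0.0139), as did Lrpprc, which stabilises mitochondrial mRNA (0.91, 0.0186), and the complex IV copper chaperone Sco2 (-0.50, 0.0143), the electron carrier Etfa (-0.60, 0.0482) and Yy1 (-0.52, 0.0135) fell. On the HPD, Esrra (0.81, 0.0131), the complex I assembly factor Foxred1 (0.56, 0.0381), cytochrome c, Cycs (0.76, 0.0432), and Mrps33 (0.66, 0.0487) rose. Cycs kept its call in 6 of 15 fits with 1 library left out, Mrps33 in 3 and Foxred1 in 9, and without Cort HPD replicate 1 Cycs was at 0.41 (adjusted p = 0.122). Etfa on the NPD kept its call in 4 of 15. HPD over NPD in cort-treated liver raised 5 of 76 ribosomal protein genes, among them Mrpl22 (0.77, adjusted p = 0.00677 by edgeR) and Mrps28 (1.43, 0.0319), and Yy1 (0.53, 0.0236), Pnpt1 (1.76, 0.036), Foxred1 (0.70, 0.0102) and Sucla2 (0.49, 0.0489) also rose, where 3.08% of all genes were called higher. Without Cort HPD replicate 1, Pnpt1 was at 0.97 (adjusted p = 0.0255) and Mrps28 at 0.89 (0.0282), and Sucla2 kept its call in 2 of 15 fits with 1 library left out.

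Ppargc1b fell with cort in liver and rose with cort in NPD eWAT. It was at 9.30 ± 3.77 CPM in eWAT Veh NPD, 17.6 ± 12.5 in Veh HPD, 22.1 ± 4.08 in Cort NPD and 25.1 ± 5.21 in Cort HPD, and in liver at 15.2 ± 2.05, 15.8 ± 3.93 (n = 3), 7.45 ± 2.71 and 7.00 ± 1.45 CPM. In liver the cort groups lay below the veh groups on both diets (log2 fold changes -1.03, adjusted p = 0.00402, and -1.16, adjusted p = 0.0032, by edgeR), which held in every alternative and with each library left out, whereas the eWAT call on the NPD was kept in 4 of 16 fits with 1 library left out. The cort effect in liver minus that in eWAT was -2.24 ± 0.45 on the NPD (adjusted p = 0.0032 by edgeR) and -1.71 on the HPD (adjusted p = 0.0347). Mtpap (-1.04, 0.0183), Sco2 (-0.997, 0.0447), Yy1 (-0.65, 0.047), Mrpl22 (-1.06, 0.0157) and Mrpl12 (-0.95, 0.046) also differed between tissues on the NPD, though Sco2 kept its call in 15 and Mrpl12 in 14 of 31 fits with 1 library left out. The Ppargc1b difference on the HPD was kept in 21 of 31. Ppargc1a, the better known coactivator of mitochondrial genes, and Tfam, which packages mitochondrial DNA, were called in no comparison within a tissue, with Ppargc1a at a log2 fold change of 0.58 with cort in NPD liver (adjusted p = 0.112 by edgeR).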

How the data were processed

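The authors sequenced 3′-end (QuantSeq FWD) libraries and deposited raw counts per Ensembl gene for 32 libraries, with replicates kept apart and no normalization. The aligner, the counting program and the annotation are not given in the sources used here, and the submitters' processing notes name the builds GRCm38 and mm10. Symbols and positions came from GENCODE M21 of GRCm38, and 419 of 47643 IDs had none. The members and lists were chosen with earlier results of these data known. The labels do not say in words that replicates were separate animals, and p-values measure the spread between these libraries.

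The tissues were fitted separately with edgeR 4.0.16 (R 4.3.3; limma 3.58.1 for voom), with 1 mean per group and no covariate, over 31 libraries (16 of eWAT, 15 of liver). Genes were filtered with filterByExpr (minimum count 10, minimum total 15), scaled with TMM factors and tested with the quasi-likelihood test, and an adjusted p (Benjamini-Hochberg over all genes tested) under 0.05 was a call. A joint fit of both tissues tested differences between them. Same-numbered libraries correlated over 0.1 in every pair only for liver Veh NPD with Veh HPD (0.232 to 0.244). For eWAT Veh NPD with Cort NPD every pair was positive (0.0384 to 0.256), with 2 of 4 over 0.1. The labels give the numbers no further meaning. The script was tested on simulated data. Library totals were 8933307 to 18057936 counts, and errors are those between libraries.

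Named genes were the mitochondrial members, of the nuclear members called in a comparison the 3 or fewer of smallest p that rose and that fell, the isoform pairs of complex IV, Sdha to Sdhd, likewise 2 or fewer called genes from each other list, and Ppargc1a, Tfam and Ucp1. Others, such as Ndufb4, Atp5f1, Ndufab1 and Uqcrq on the HPD, were chosen after their values were seen. Alternatives were RLE factors, library totals, mitochondrial genes left out of totals and factors, DESeq2 1.42.0, limma voom, no filter, a fit of only the groups compared, a replicate block, leaving out each library and all 16 liver libraries.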

Additional observations from a re-analysis of the deposited data

Results flagged for a closer look

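In 57 tests, each of 1 measure in 1 group of 4 libraries, the gap of the highest or lowest library to its neighbour was examined. The measures were the summed members, their ratio, and the CPM of called members in the groups compared. Each gap, as a share of the range, was set against Dixon's 95% critical value, and 6 values exceeded it. Chance flags about 1 in 20 independent tests, but these tests share libraries and members. The summed nuclear members of eWAT Veh HPD replicate 4 were at 25415.9 CPM and those of the other libraries of that group between 16076.7 and 17001.0 CPM. The same library had 44.435 CPM of Cox8b, against 11.281 to 16.881 CPM. Liver Cort HPD replicate 1 had summed nuclear members of 35744.1 CPM, against 25505.0 to 26452.9 CPM, and summed mitochondrially encoded members of 266896.0 CPM, against 136187.1 to 157377.3 CPM. Cox8b in eWAT Cort NPD replicate 2 was at 5.815 CPM, below 9.706 to 10.39 CPM in the rest of its group. Atp5f1 in liver Cort NPD replicate 1 was at 362.33 CPM, above 340.352 to 343.85 CPM.

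The cort effect on Ndufa4l2 on the HPD differed between liver and eWAT by 3.5204 on the log2 scale, by the test of the difference itself in the joint edgeR fit.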

How the results depend on the processing

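No called fold change of a named gene changed sign under any alternative run. Of 1761 values of single genes under the alternatives 326 fell short of the threshold, and of 832 counts and medians 62 moved. The counts below are of members called, and the cause of each change was not tested except where fewer libraries or genes entered the fit. In eWAT, cort on the NPD (5) gave 3 with library totals, 8 with DESeq2, 9 with only the groups compared and 3 with the replicate block, and HPD against NPD in cort-treated mice (0) gave 1 each with DESeq2, no filter and only the groups compared. In liver, cort on the NPD (4) gave 7 with only the groups compared, cort on the HPD (5) gave 2 with library totals and 3 each with no filter and only the groups compared, HPD against NPD in veh-treated mice (0) gave 1 each with DESeq2 and no filter, HPD against NPD in cort-treated mice (5) gave 3 with library totals, 15 with DESeq2 and 3 each with only the groups compared, the replicate block and all 16 liver libraries, and the interaction (0) gave 1 with DESeq2. The difference of the cort effect between tissues gave 2 with DESeq2 on the NPD (0), and 3 each with DESeq2 and all 16 liver libraries on the HPD (1). With library totals the nuclear medians in liver were -0.0611 for cort on the HPD, 0.0571 for diet under cort and 0.0278 for the interaction.

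With 1 library left out, the members called ranged from 2 (without Cort HPD replicate 3) to 9 (without Veh HPD replicate 4) for cort on the NPD in eWAT, from 3 to 17 (without Veh HPD replicate 4) on the HPD, and from 0 to 2 (without Veh HPD replicate 4) for diet under cort. In liver they ranged from 3 to 7 (without Cort HPD replicate 1) for cort on the NPD, from 1 (without Veh HPD replicate 1) to 6 on the HPD, from 1 (without Cort NPD replicate 1) to 7 (without Cort HPD replicate 2) for diet under cort, and from 0 to 1 (without Veh HPD replicate 3) for diet in veh-treated mice. For the tissue difference they ranged from 0 to 2 on each diet. Nuclear medians ranged from -0.0242 to 0.1963 for cort on the HPD in eWAT, from -0.2649 to -0.0325 for diet in veh-treated eWAT, from -0.1098 to 0.1314 for the eWAT interaction and from 0.0546 to 0.2746 for cort on the HPD in liver. The mitochondrial median for cort on the HPD in liver ranged from -0.3513 to 0.4084 (without Veh HPD replicate 2).

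Deviations of libraries with the same number correlated between -0.161 and 0.256 in eWAT (6 of 24 over 0.1) and between -0.271 and 0.374 in liver (6 of 21 over 0.1). For libraries with different numbers, 6 of 72 pairs in eWAT and 17 of 63 in liver were over 0.1. The medians for same and different numbers were 0.0226 and -0.0084 in eWAT, and -0.0264 and 0.0023 in liver. Whether the numbers pair the eWAT libraries was not tested. In 1 comparison, liver Veh NPD with Veh HPD, all 3 same-numbered pairs exceeded 0.1 (0.232 to 0.244), and there the replicate block called 0 members, as did the fit without it. In eWAT Veh NPD with Cort NPD all 4 pairs were positive (0.0384 to 0.256, 2 over 0.1). In that comparison the replicate block lost the calls of mt-Nd2 and Ndufb3. The members with fewest counts, Cox4i2, Cox6b2, Ndufa4l2 and Cox8b in liver, are limited by depth.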

Other observations

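Liver Veh HPD replicate 4, which entered no value above except its distance and the fits of all 16 liver libraries, had summed nuclear members of 29873.8 CPM and summed mitochondrially encoded members of 195957.8 CPM. Unlike the sums above, these are CPM of the library total without TMM factors. As shares of all counts, its nuclear members made up 2.99% and its mitochondrial members 19.6%. In the Veh HPD liver libraries used, these shares ran from 2.68 to 2.80% and from 14.2 to 21.5%. The copies of mt-Co2 and mt-Co1 that drew the most counts were Gm13341, with 136 to 286 counts per eWAT library and 207 to 455 per liver library, and Gm13340, with 158 to 328 and 47 to 189. In eWAT Cort HPD replicate 4 the summed epididymis and testis markers were at 9085 CPM, and Ndufb3, Cox8b and Ndufaf4 kept their calls on the HPD without it.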
